A study of Mus musculus with 16 samples.

Results

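Transcripts of 9 genes from 3 small families of the early transcriptional response were followed in mouse embryonic stem cells while ERK signalling was switched on and then blocked. The members were Ier2, Ier3, Ier5 and Ier5l, Btg1 and Btg2, and Zfp36, Zfp36l1 and Zfp36l2, chosen by gene symbol among the 52636 gene identifiers of the count table. All 9 were found there, and all 9 were among the 12215 genes that passed the filter on low counts. Cells of the line CRAFR26, which carry a kinase construct that switches on ERK signalling when 4-hydroxytamoxifen is added, are routinely grown without serum in 2i/LIF (the GSK3 inhibitor Chir, the MEK inhibitor PD03 and LIF). In all 4 groups the FGF receptor inhibitor PD17 (250 nM) had replaced PD03 for the 48 h before the experiment, so every comparison was made in its presence. The group 0h was collected before 4-hydroxytamoxifen (250 nM) was added, 2h and 4h after that many hours of it, and rev after 4 h of it and a further 2 h with a MEK inhibitor. Nothing was collected between 0h and 2h, so a rise that had passed before 2h could not be seen. Each group held 4 libraries of total RNA depleted of ribosomal RNA, 2 from clone 4 and 2 from clone 8. No group received vehicle alone, and none was kept for the further 2 h without the MEK inhibitor, so time and solvent cannot be told apart from the treatments. Whether the 2 replicates of a clone came from separate cultures was not stated, so p-values measure only the spread between these libraries, which may be technical.

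Immediate-early genes are transcribed within minutes of a stimulus from factors already present in the cell, and many give short-lived mRNAs whose level soon follows the rate of transcription. ERK, the kinase activated by MEK, is a main route to their induction through ETS factors and serum response factor. The 3 families sit at different points of that response. Ier2 and Ier3 encode early-response regulators, Ier2 a nuclear protein and Ier3 a protein linked to cell survival under stress; Ier5 regulates the heat shock factor HSF1 and Ier5l is its paralog. Btg1 and Btg2 are antiproliferative proteins that bind the CAF1 deadenylase subunits of the CCR4-NOT complex, and Btg2 is a well-known target of p53. The Zfp36 proteins (Zfp36 is also called tristetraprolin) bind AU-rich elements of mRNAs through CCCH zinc fingers and recruit CCR4-NOT, which shortens the poly(A) tail, so they limit the lifetime of other early mRNAs and of their own.

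The promoters of the induced Zfp36 and Zfp36l1 and of Btg2, which was not induced, are shown because they differ in the motifs of early-response factors they hold. RefSeq promoter windows (GRCm38.p6) of 250 bases before to 50 bases after the start were matched for 7 of the 9 members; Ier2 and Zfp36l2 had no entry. Both strands were searched for a CArG box (bound by serum response factor), the CRE TGACGTCA, the AP-1 letters TGANTCA, the ETS letters CCGGAAG and TATAAA; of these, no pair overlapped in a printed window. Capitals mark the matches. The 250 bases before the start are printed, which hold every match in these windows, from the minus strand and 5′ to 3′.
Zfp36, chr7:28379229-28379478: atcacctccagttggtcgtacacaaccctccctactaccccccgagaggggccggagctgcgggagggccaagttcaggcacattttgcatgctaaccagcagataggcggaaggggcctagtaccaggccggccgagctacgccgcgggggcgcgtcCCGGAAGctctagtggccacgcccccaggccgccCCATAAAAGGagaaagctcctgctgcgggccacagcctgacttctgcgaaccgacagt
Zfp36l1, chr12:80113014-80113263: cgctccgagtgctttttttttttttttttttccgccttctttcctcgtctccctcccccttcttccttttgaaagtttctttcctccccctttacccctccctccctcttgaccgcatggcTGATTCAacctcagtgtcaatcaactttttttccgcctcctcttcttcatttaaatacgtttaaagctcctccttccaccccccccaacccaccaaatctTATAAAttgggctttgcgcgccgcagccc
Btg2, chr1:134079156-134079405: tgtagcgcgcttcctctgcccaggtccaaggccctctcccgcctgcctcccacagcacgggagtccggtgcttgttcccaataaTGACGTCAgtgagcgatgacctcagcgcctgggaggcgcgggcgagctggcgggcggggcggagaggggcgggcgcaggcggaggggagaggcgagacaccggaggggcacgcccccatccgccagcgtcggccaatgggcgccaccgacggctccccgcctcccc

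The Zfp36 window held the only CArG box among the 7 members, from -58 to -49 relative to the start, a motif found in 1.63% of all 32851 windows. An ETS site lay upstream of it at -92 (8.86% of windows). The Zfp36l1 window held an AP-1 site at -129 (7.81% of windows) and TATAAA at -29 (13.6% of windows). Btg1 also had TATAAA, at -26. The CRE of Btg2 lay at -166 (1.79% of windows). None of these letters occurred in the windows of Ier3, Ier5 and Ier5l, which says only that they are not in these 300 bases.

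The 3 Zfp36 family mRNAs also shared a feature of their 3′ UTRs, shown because it is the element that the family's own proteins bind. In the longest coding transcript of GENCODE M21 (GRCm38), the nonamer TTATTTATT occurred 1 time in the 3′ UTR of each of Zfp36, Zfp36l1 and Zfp36l2 and in none of the other 6 members. It was found in 930 of the 11270 tested genes with an annotated 3′ UTR (8.25%), over UTRs of all lengths. The sites of Zfp36 and Zfp36l1 are printed with the nonamer in capitals, from the minus strand.
Zfp36, chr7:28376953-28376977: tgacgactTTATTTATTgtattaag
Zfp36l1, chr12:80108169-80108193: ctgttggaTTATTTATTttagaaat

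Ier3 had no nonamer, but its 3′ UTR of 613 bases held 5 copies of the shorter ATTTA, or 8.16 per kilobase, against a median of 1.32 per kilobase over the tested genes. The 3′ UTR of Ier2, of 755 bases, held none. Per kilobase, the count was 0.933 for Ier5, 2.39 for Ier5l, 2.64 for Btg1 and 2.27 for Btg2. It was 3.88 for Zfp36, 4.90 for Zfp36l1 and 2.74 for Zfp36l2. The genes were short: on GRCm38, Ier2 (chr8:84661331-84662852), Ier5 (chr1:155096361-155099636) and Ier5l (chr2:30471537-30474219) each have 1 exon, on the minus strand. Ier3 (chr17:35821684-35822923, plus strand) has 2 exons. An opposite-strand transcript overlaps the exons of each Zfp36 gene, and the strand setting of the counting was not given in the sources used here. The overlap was longest at Zfp36l1 (chr12:80107754-80113013), where Gm26669 covers 1672 of 2990 exon bases. Gm26669 itself had at most 2 counts in any library, which does not show how reads in the overlap were counted.

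Levels are given as CPM, read counts scaled to a common library total with TMM factors, from libraries with totals of 2172651 to 12680303 counts. The markers of naive embryonic stem cells were all present, with a summed level of 1850 to 2660 CPM over the 16 libraries. Of the other cell types, the summed mesoderm list was 5.77 to 8.96 CPM at 0h, 8.09 to 16.2 CPM at 2h, 16.3 to 25.5 CPM at 4h and 6.96 to 10.2 CPM in rev; 1 of its 4 genes never exceeded 3 counts, and its part in the results was not tested. Over the 16 libraries summed levels were at or under 7.21 CPM for primitive endoderm and 8.56 CPM for fibroblast feeders, of which 2 of 7 genes were at 0 in all 16 libraries. The summed trophoblast list was 0.804 to 4.89 CPM at 0h, 2.27 to 5.69 CPM at 2h, 2.63 to 12.6 CPM at 4h and 4.81 to 12.5 CPM in rev; none of its 5 genes was at 0 in all libraries, and its part in the results was not tested. The summed neural list was 19.2 to 46.4 CPM at 0h, 14.9 to 36.3 CPM at 2h, 12.9 to 26.7 CPM at 4h and 27.2 to 37.8 CPM in rev, without overlap between 4h and rev, and its part in the results was not tested either. The 8 most abundant gene models took 54.1% ± 9.31 of counts at 4h and 65.9% ± 10.6 in rev (SD, n = 4), with 80.4% in rev clone 8 replicate 2.

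**Figure D1:**
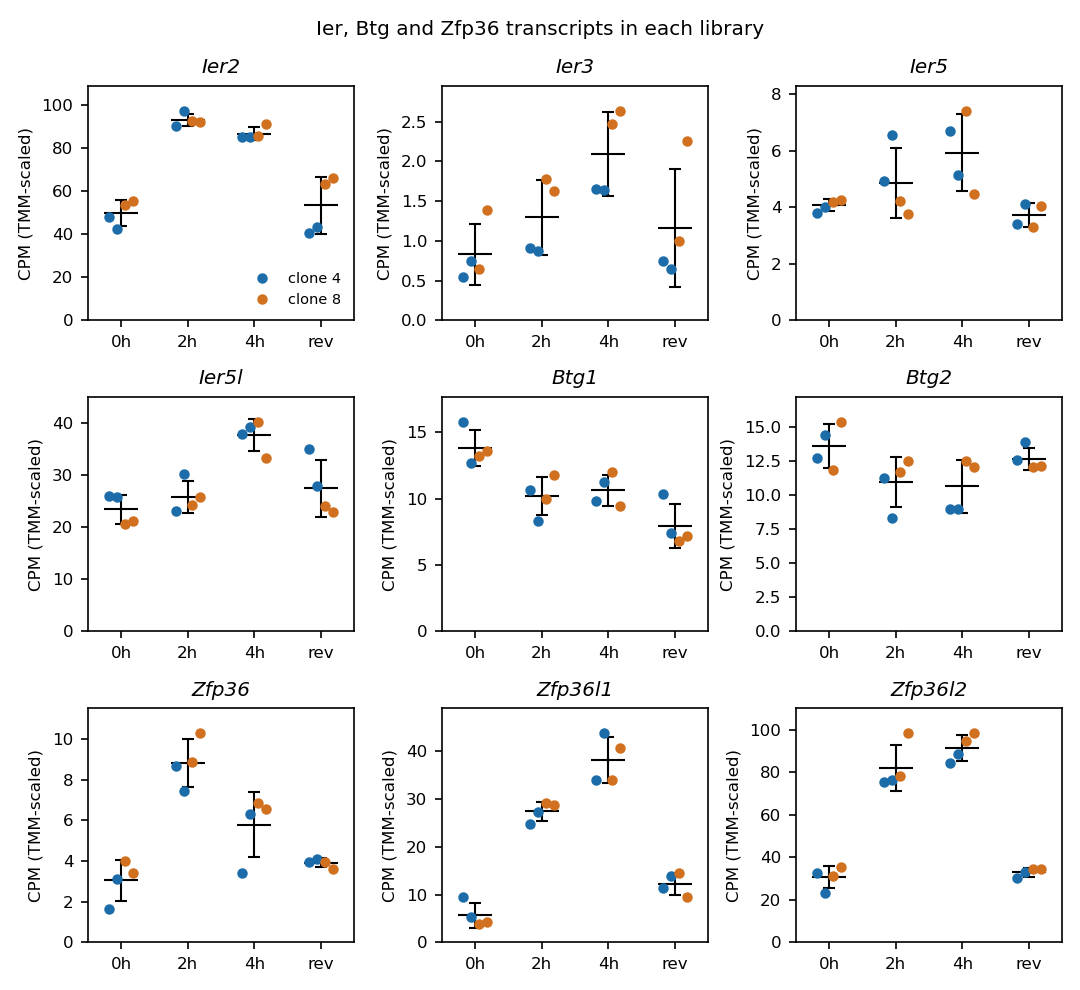
Level of each of the 9 genes in CPM (TMM-scaled, linear axis from 0) in the 16 libraries, by group; points are libraries, coloured by clone, and bars are the mean ± SD of 4. Ier2 and the Zfp36 genes stand higher at 2h than at 0h in every library. Zfp36l1 reaches 34.0 to 43.7 CPM at 4h, and Btg1 and Btg2 have lower means at 2h and 4h than at 0h.

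Zfp36l1 had the largest fold change of the 9 members after ERK activation. It stood at 9.51 and 5.22 CPM in clone 4 and 3.86 and 4.17 CPM in clone 8 before induction. At 2h the values were 24.7 and 27.2 CPM in clone 4 and 29.1 and 28.6 CPM in clone 8, and at 4h they were 34.0 and 43.7 CPM in clone 4 and 34.0 and 40.5 CPM in clone 8. No library at 2h or 4h overlapped those at 0h. The log2 fold change was 2.41 ± 0.16 (SE, adjusted p = 6.54e-14) at 2h and 2.87 ± 0.16 (adjusted p = 2.60e-16) at 4h, a 7.29-fold higher level. All p-values here are from edgeR's quasi-likelihood test, adjusted over the 12215 genes. In bulk RNA, a change in the RNA per cell cannot be told apart from a change in the share of cells that express the gene.

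Zfp36l2 was the most abundant of the family and rose in every library. Its level was 32.9 and 23.1 CPM in clone 4 and 31.4 and 35.6 CPM in clone 8 at 0h. At 2h it stood at 75.5 and 76.2 CPM in clone 4 and at 78.4 and 98.4 CPM in clone 8, and at 4h at 84.4, 88.8, 94.6 and 98.4 CPM in the same order. The 2h and 4h libraries lay above all 0h libraries, with log2 fold changes of 1.43 ± 0.09 (adjusted p = 1.80e-14) and 1.59 ± 0.09 (adjusted p = 6.49e-16). Between 2h and 4h Zfp36l2 did not pass the test (0.16 ± 0.08, adjusted p = 0.263).

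Zfp36 itself, the founding member, was higher at 2h than at 4h. It had 1.63 and 3.13 CPM in clone 4 and 4.02 and 3.42 CPM in clone 8 at 0h, from 6 to 32 counts. At 2h it had 8.67 and 7.44 CPM in clone 4 and 8.87 and 10.3 CPM in clone 8. At 4h it had 3.41 and 6.31 CPM in clone 4 and 6.84 and 6.58 CPM in clone 8. All 4 libraries at 2h lay above all those at 0h and at 4h, while 4h overlapped 0h through clone 4 replicate 1. The log2 fold change was 1.49 ± 0.19 at 2h (adjusted p = 3.20e-07), 0.84 ± 0.22 at 4h against 0h (adjusted p = 0.00286) and -0.65 ± 0.17 at 4h against 2h (adjusted p = 0.0159). The fall from 2h to 4h did not pass the test without 2h clone 4 replicate 1, 2h clone 8 replicate 2 or 4h clone 4 replicate 1 (adjusted p up to 0.107, log2 fold change -0.47 to -0.79 over the 8 left-out libraries), nor with library-size scaling or without clone in the model.

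Among the Ier genes, Ier2 was the most abundant and had risen by 2h with no further change past the test. It stood at 48.1 and 42.5 CPM in clone 4 and 53.7 and 55.6 CPM in clone 8 at 0h. At 2h it stood at 90.2, 97.2, 92.7 and 92.3 CPM, and at 4h at 85.1, 85.3, 85.6 and 91.0 CPM, in the same order of libraries. The spread at 2h and 4h was small and neither group overlapped 0h. The log2 fold change was 0.89 ± 0.09 at 2h (adjusted p = 3.58e-09) and 0.81 ± 0.09 at 4h (adjusted p = 1.45e-08), and -0.08 ± 0.09 between them (adjusted p = 0.675).

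Ier5l was not called at 2h and was higher at 4h. Its levels were 26.1 and 25.8 CPM in clone 4 and 20.7 and 21.3 CPM in clone 8 at 0h, and 23.2, 30.2, 24.3 and 25.8 CPM at 2h. At 4h they were 37.9 and 39.4 CPM in clone 4 and 40.3 and 33.4 CPM in clone 8, all above every library at 0h and at 2h. The log2 fold change was 0.14 ± 0.10 at 2h (adjusted p = 0.363), 0.69 ± 0.10 at 4h (adjusted p = 1.64e-06) and 0.55 ± 0.10 from 2h to 4h (adjusted p = 2.01e-04). With library-size scaling the last difference was 0.64 and did not pass (adjusted p = 0.364).

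Ier5 and Ier3 were weakly expressed, which limits what can be said of them. Ier5 had 3.80 to 4.28 CPM at 0h, with a median of 4.10 CPM, and 6.71 and 5.14 CPM in clone 4 and 7.41 and 4.47 CPM in clone 8 at 4h, from 9 to 61 counts in any library. The 4h libraries lay above those at 0h, and the log2 fold change was 0.53 ± 0.19 (adjusted p = 0.0339). That call was lost in 6 of 12 other settings. Among them was a required log2 fold change of 1 or more, which a value of this size could not pass. The call was also lost without 4 of the 8 libraries in turn, 0h clone 4 replicates 1 and 2, 4h clone 4 replicate 1 and 4h clone 8 replicate 1 (adjusted p up to 0.172). Ier3 had 2 to 23 counts per library, near the floor of 3 counts. Its level was 0.543 and 0.746 CPM in clone 4 and 0.643 and 1.39 CPM in clone 8 at 0h, and 1.65, 1.64, 2.47 and 2.63 CPM at 4h. The 4h libraries lay above all those at 0h, with a log2 fold change of 1.26 ± 0.33 (adjusted p = 0.00311), which passed in all 12 other settings and without each of the 8 libraries. At 2h neither passed, Ier3 at 0.58 ± 0.33 (adjusted p = 0.221) and Ier5 at 0.11 ± 0.19 (adjusted p = 0.778).

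Btg1 and Btg2 had negative log2 fold changes at 2h and 4h, and a passing rise before 2h could not be seen. Btg1 stood at 15.8 and 12.7 CPM in clone 4 and 13.2 and 13.6 CPM in clone 8 at 0h. It stood at 10.6, 8.32, 9.97 and 11.8 CPM at 2h and at 9.79, 11.2, 11.96 and 9.47 CPM at 4h. Every library at 2h and at 4h lay below every one at 0h. The log2 fold change was -0.36 ± 0.13 at 2h (adjusted p = 0.0504) and -0.36 ± 0.14 at 4h (adjusted p = 0.0400), so only the second passed the test. The 4h call was lost in 5 of 12 other settings. Among them was a required log2 fold change of 1 or more in either direction, which a value of this size could not pass. The call was also lost without any of 6 of the 8 libraries, all but 0h clone 4 replicate 2 and 4h clone 8 replicate 1 (adjusted p up to 0.128).

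Btg2 had 12.8 and 14.5 CPM in clone 4 and 11.9 and 15.4 CPM in clone 8 at 0h, and 9.02, 8.995, 12.5 and 12.1 CPM at 4h. The groups overlapped in clone 8. The log2 fold change was -0.27 ± 0.13 at 2h (adjusted p = 0.126) and -0.40 ± 0.13 at 4h (adjusted p = 0.0185), the latter not passing with library-size scaling or without 0h clone 4 replicate 2, 0h clone 8 replicate 2, 4h clone 4 replicate 1 or 4h clone 4 replicate 2 (adjusted p up to 0.0892). Within clone 4 the 4h value was -0.61 ± 0.18 (adjusted p = 0.0124), where 10.2% of all tested genes were called lower. Within clone 8 it was -0.17 ± 0.18 (adjusted p = 0.548), where 9.28% were. The difference between the clones, 0.45 ± 0.25, did not pass (adjusted p = 0.516). With library-size scaling this difference was -0.19, of the opposite sign, and did not pass either (adjusted p = 0.755).

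Over the 9 members, 4 were called higher at 2h (Ier2 and the 3 Zfp36 genes), against 11.4% of all tested genes. None was called lower, against 9.68%. By an unadjusted p under 0.05, Btg1 and Btg2 were lower, and DESeq2 called neither. The share of all tested genes at that unadjusted threshold was not counted, so these 2 cannot be set against it. At 4h against 0h, 7 were called higher and 2 lower, against 17.2% and 16.8% of all tested genes. From 2h to 4h, Ier5l and Zfp36l1 (0.45 ± 0.12, adjusted p = 0.0121) were called higher and Zfp36 lower, against 3.8% and 3.52%. The Zfp36l1 rise from 2h to 4h was lost without 2h clone 4 replicate 1 or 4h clone 4 replicate 2 (adjusted p up to 0.112), with library-size scaling and without clone in the model. The median log2 fold change of the members was 0.58 at 2h and 0.81 at 4h, against -0.02 at both times over all tested genes. The members had been chosen with results of these data known, so these counts describe them and do not test them.

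**Figure D2:**
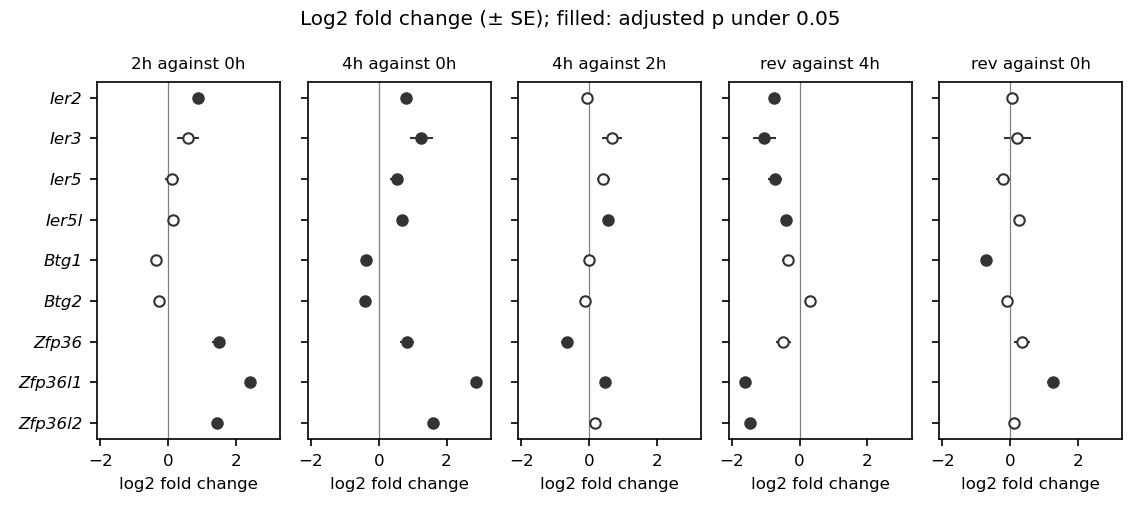
Log2 fold change (x axis) of each of the 9 genes in 5 comparisons; points are estimates from the model of 16 libraries, bars are ± 1 SE, and filled points have an adjusted p under 0.05. At 4h against 0h all 9 points are filled, 7 to the right of 0 and Btg1 and Btg2 to the left, and in rev against 4h the 6 filled points are all to the left.

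Most of the induced members were lower in rev, after 2 h with the MEK inhibitor, than at 4h. Zfp36l1 had 11.3 and 13.9 CPM in clone 4 and 14.4 and 9.47 CPM in clone 8 in rev, below all 4h libraries, a log2 fold change against 4h of -1.60 ± 0.14 (adjusted p = 9.04e-11). Zfp36l2 had 30.1, 33.0, 34.5 and 34.7 CPM, also below all 4h libraries (-1.47 ± 0.09, adjusted p = 2.42e-14). These are 3.03-fold and 2.77-fold lower levels than at 4h. Both falls passed in all 12 other settings and without any of the 8 libraries. They ended at different places relative to 0h. Zfp36l2 differed from 0h by 0.12 ± 0.10 (adjusted p = 0.437), while Zfp36l1 was still 1.26 ± 0.19 higher (adjusted p = 9.63e-06), with its rev libraries above 3 of the 4 libraries at 0h. The largest 0h value, 9.51 CPM in clone 4 replicate 1, overlapped rev, and without that library the difference was 1.51.

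Zfp36 in rev had 3.94, 4.13, 3.98 and 3.61 CPM, a tighter range than in any other group. The difference from 4h did not pass the test (-0.48 ± 0.21, adjusted p = 0.121); without 4h clone 4 replicate 1 it was -0.70 and passed (adjusted p = 0.0223), and with library-size scaling it was -0.88 and passed (adjusted p = 0.0324). Against 0h it was 0.36 ± 0.24 (adjusted p = 0.297).

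Ier2 in rev had 40.5 and 43.4 CPM in clone 4 and 63.5 and 66.3 CPM in clone 8. All 4 lay below the 4h libraries (-0.75 ± 0.09, adjusted p = 3.26e-07), and around those at 0h (0.06 ± 0.10, adjusted p = 0.721). The fall was -1.03 ± 0.10 in clone 4 and -0.45 ± 0.10 in clone 8. The difference between the clones, 0.58 ± 0.14, did not pass after adjustment (adjusted p = 0.456), the unadjusted p being 2.94e-04.

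Ier5l in rev had 35.1 and 28.0 CPM in clone 4 and 24.0 and 23.0 CPM in clone 8, overlapping 4h through clone 4 replicate 1. It fell by 0.42 ± 0.10 on the log2 scale (adjusted p = 0.00333) and was 0.28 ± 0.11 above 0h, which did not pass (adjusted p = 0.0590). Ier5 had 3.41, 4.13, 3.31 and 4.06 CPM in rev, below all 4h libraries (-0.73 ± 0.21, adjusted p = 0.0118); the call was lost without 4h clone 4 replicate 1, 4h clone 8 replicate 1 or rev clone 4 replicate 1 (adjusted p up to 0.0794). Ier3 had 0.746, 0.652, 0.994 and 2.25 CPM, the last from 5 counts and overlapping 4h. Its difference of -1.05 ± 0.33 (adjusted p = 0.0280) was lost in 4 of 12 other settings, among them the share of the 8 most abundant models as a covariate, and without any of 5 of the 8 libraries, namely 4h clone 4 replicates 1 and 2, rev clone 4 replicates 1 and 2 and rev clone 8 replicate 1 (adjusted p up to 0.153).

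In rev, Btg1 was lower than at 0h and Btg2 was not called. Btg1 had 10.3 and 7.38 CPM in clone 4 and 6.79 and 7.21 CPM in clone 8, below every library at 0h. Against 0h the log2 fold change was -0.72 ± 0.15 (adjusted p = 6.58e-04), and against 4h -0.36 ± 0.15, which did not pass (adjusted p = 0.114) except without rev clone 4 replicate 1 (-0.59, adjusted p = 0.0237) and with library-size scaling. Btg2 had 12.6, 13.9, 12.1 and 12.2 CPM, within the range at 0h (-0.10 ± 0.13, adjusted p = 0.637) and 0.30 ± 0.14 above 4h (adjusted p = 0.137).

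In all, 6 members were called lower in rev than at 4h (Ier2, Ier3, Ier5, Ier5l, Zfp36l1 and Zfp36l2), against 8.43% of all tested genes. None was called higher, against 7.93%. By an unadjusted p under 0.05, for which no share of all tested genes was counted, Btg2 was higher, and DESeq2 did not call it. Within clone 4 alone Btg2 was called higher in rev (0.54 ± 0.17, adjusted p = 0.0400), with -0.03 ± 0.21 in clone 8 (adjusted p = 0.965), against 4.76% and 2.41% of all tested genes; the difference between the clones did not pass (adjusted p = 0.813). Against 0h, 1 member was higher (Zfp36l1) and 1 lower (Btg1), against 12.4% and 9.86%. The median of the members was -0.73 in rev against 4h, against 0.01 over all genes. Scaling by library size alone, which ignores the share taken by the most abundant models, moved the median of all tested genes to -0.41 in rev against 4h and to -0.32 in rev against 0h. On that scale 8 members were called lower than at 4h, Btg1 and Zfp36 in addition, and all tested genes called lower went from 1030 to 1671 while those called higher went from 969 to 57. Against 0h the genes called higher went from 1518 to 105 and those called lower from 1204 to 905. Zfp36l1 was at -2.003 and Zfp36l2 at -1.89 against 4h, both below that median. Against 0h on that scale Ier2 was at -0.28, Ier3 at -0.12, Ier5l at -0.05 and Zfp36l2 at -0.22, each of the opposite sign to its TMM value but above the median of all genes.

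**Figure D3:**
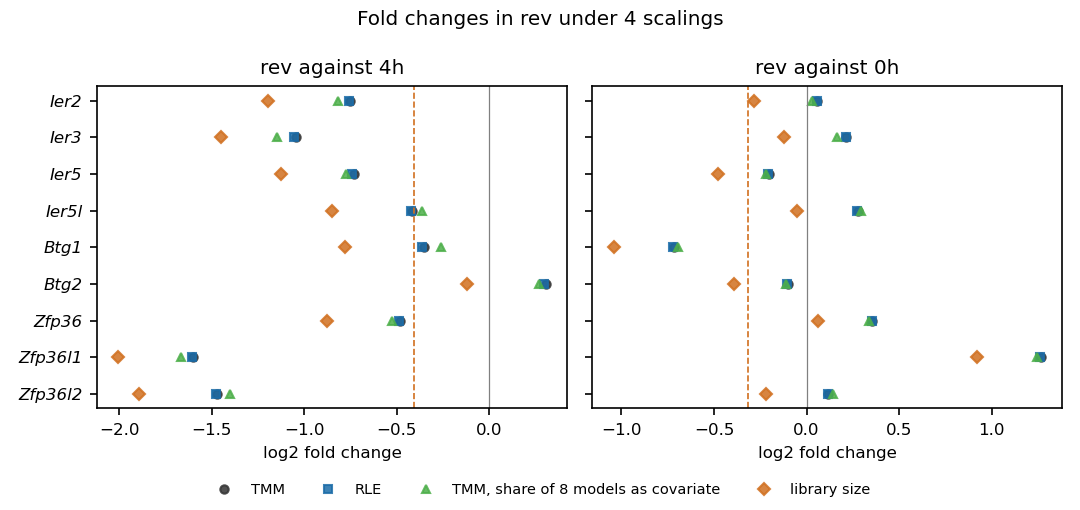
Log2 fold change (x axis) of the 9 genes in rev against 4h (left) and against 0h (right) under TMM, RLE, TMM with the share of the 8 most abundant models as a covariate, and library size alone; the dashed line is the median of all tested genes with library size alone, at -0.41 and -0.32. TMM and RLE nearly coincide, and library size moves every gene to the left by about the distance of the dashed line.

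The part of the induction that was lost in rev can be put as a ratio, the fall from 4h to rev over the rise from 0h to 4h on the log2 scale, both of which use the same 4h libraries. The replicate numbers do not pair libraries across groups, so the ratio is given with its range when each library was left out in turn. That range shows the pull of single libraries and is not an error of the ratio. For Zfp36 it held neither of the values within the clones. It was 0.927 (0.892 to 0.989) for Zfp36l2, 0.559 (0.514 to 0.597) for Zfp36l1 and 0.576 (0.475 to 0.680) for Zfp36. Ier2 had 0.929 (0.799 to 1.04), Ier3 0.830 (0.674 to 1.0003), Ier5 1.39 (1.25 to 1.59) and Ier5l 0.601 (0.524 to 0.809). For Btg2 it was 0.752 (0.605 to 0.929), but 0.874 within clone 4 and -0.157 within clone 8. Btg1, with a negative log2 fold change in both comparisons, had -0.977, and -1.67 without rev clone 4 replicate 1. Within clone 4 and clone 8 in turn the ratio was 0.876 and 0.976 for Zfp36l2, 0.662 and 0.476 for Zfp36l1, and 0.297 and 0.912 for Zfp36, whose difference from 4h had not passed the test. It was 1.11 and 0.655 for Ier2, 0.934 and 0.748 for Ier3, 1.18 and 1.49 for Ier5, 0.456 and 0.792 for Ier5l and -0.448 and -2.16 for Btg1. Library-size scaling moved the ratio by more than 1.5 times for Ier5l (1.06), Zfp36 (0.933) and Btg1 (-2.96), and turned the sign of that of Btg2 (-0.444).

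Within the Zfp36 family the balance moved from Zfp36l2 towards Zfp36l1. Per kilobase of exon, the family's summed level started from 11.5 ± 1.67 CPM per kb at 0h and was 34.97 ± 3.76 after 2 h, 40.3 ± 3.01 after 4 h and 14.6 ± 1.05 in rev (SD, n = 4). Zfp36l1 made up 16.5% ± 6.46 of it in the 0h libraries, 26.3% ± 2.07 after 2 h, 31.5% ± 2.79 after 4 h and 28.0% ± 3.81 in rev. The 4h range of its share, 28.3% to 35.1%, lay above the 0h range of 11.2% to 24.5%, and the rev range of 22.6% to 30.6% overlapped both. Zfp36l2 remained the largest share, from 75.6% ± 4.81 at 0h to 64.4% ± 2.78 at 4h and 64.3% ± 3.93 in rev. Zfp36 made up 7.89% ± 3.02 at 0h and 7.27% ± 0.521 at 2h, then 4.09% ± 0.955 at 4h, and 7.74% ± 0.532 in rev. Its 4h range lay below that at 2h and in rev but overlapped the 0h range of 3.62% to 10.2%. With the longest transcript as the length, mean Zfp36 went from 2.54 to 3.16 CPM per kb at 2h and from 1.67 to 2.07 at 4h. Shares were not computed with that length. The length of Zfp36l1 includes the 1672 bases that Gm26669 overlaps, and how reads there were counted is not known. As a ratio within each library, which no scaling affects, log2 Zfp36l1 over Zfp36l2 counts was -2.495 ± 0.64 at 0h, -1.27 ± 0.19 at 4h and -1.44 ± 0.28 in rev. For Zfp36 over Zfp36l2 the same ratio was -3.34 ± 0.63 at 0h, which overlapped 4h, -3.20 ± 0.10 at 2h and -4.01 ± 0.40 at 4h.

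**Figure D4:**
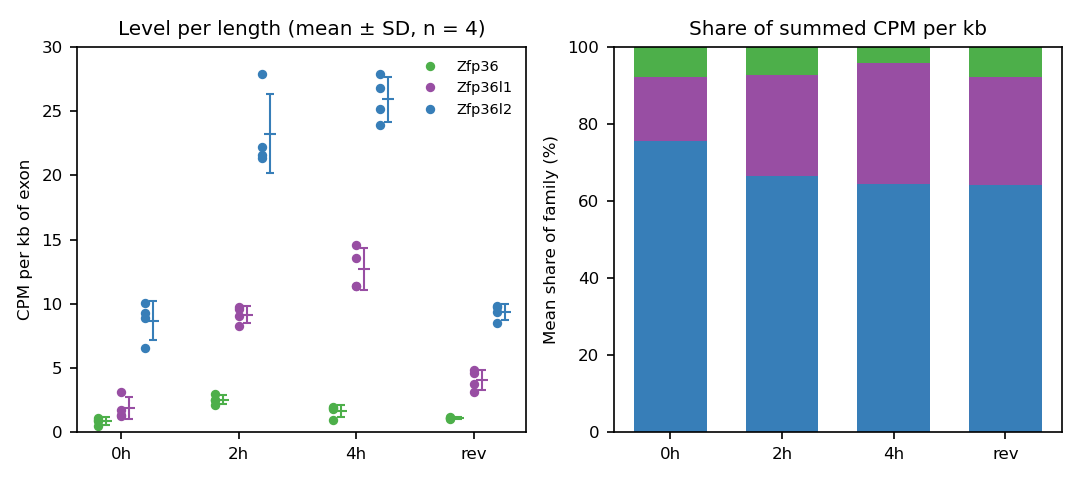
Left, level of each Zfp36 gene in CPM per kb of merged exon length (linear axis), with 1 point per library and the mean ± SD of 4 beside it; right, mean share of each gene in the family's summed CPM per kb, by group. Zfp36l2 is the largest share in every group, and the Zfp36l1 share is 16.5% at 0h and 31.5% at 4h.

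Other ratios within a library were taken for the Btg and Ier genes. Btg2 over Btg1 was -0.02 ± 0.24 at 0h and -0.0045 ± 0.28 at 4h on the log2 scale, and 0.69 ± 0.28 in rev, where its lowest value, 0.28, lay above the highest at 0h, 0.19, but below the highest at 4h, 0.35, so that rev overlapped 4h. Ier5 over Ier2 was -3.58 ± 0.14 at 0h and -4.27 ± 0.33 at 2h, which did not overlap. It was -3.88 ± 0.36 at 4h and -3.77 ± 0.39 in rev, both overlapping 0h. Ier5l over Ier5 was 2.495 ± 0.23 at 0h and 2.68 ± 0.25 at 4h, which overlapped.

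Compared per length, Ier2 was the highest of the 9 in every group, at 32.8 ± 3.88 CPM per kb at 0h and 57.0 ± 1.87 at 4h. At 0h Ier5l (8.75 ± 1.07 CPM per kb) and Zfp36l2 (8.71 ± 1.52) followed and did not differ beyond their spread, and Btg2 came next at 4.97 ± 0.579. Btg1 at 2.62 ± 0.256, Zfp36l1 at 1.90 ± 0.873 and Ier5 at 1.24 ± 0.0631 each overlapped the next of these, and below them Zfp36 at 0.879 ± 0.293 overlapped Ier3 at 0.734 ± 0.338. At 4h Zfp36l2 (25.9 ± 1.76) lay above Ier5l (14.1 ± 1.13), which overlapped Zfp36l1 (12.7 ± 1.63), now above Btg2 (3.89 ± 0.700). The lowest 4 at 4h, Btg1, Ier3, Ier5 and Zfp36, stood between 1.67 and 2.01 CPM per kb and each overlapped the next. With the longest transcript as the length in place of merged exons, mean Zfp36 at 4h was 2.07 CPM per kb, above Ier3 (1.85) and Ier5 (1.81). In rev Ier2 was again highest, followed by Ier5l and Zfp36l2, which overlapped each other.

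The 2 clones differed in the level of 4 members, with group in the model. With TMM scaling, clone 8 was higher than clone 4 for Ier2 (0.21 ± 0.07, adjusted p = 0.0135), Ier3 (0.75 ± 0.24, adjusted p = 0.0165) and Zfp36l2 (0.20 ± 0.06, adjusted p = 0.0134), and lower for Ier5l (-0.19 ± 0.07, adjusted p = 0.0487). Library-size scaling moved the median of all tested genes to -0.26 in clone 8 against clone 4. On that scale Ier2 was at -0.033, Zfp36l2 at -0.059 and Ier3 at 0.48, none past the test. Ier5l was at -0.47 and still passed (adjusted p = 0.0374). The Ier5l call was lost with no filter (adjusted p = 0.113), and those of Ier5l and Ier3 with DESeq2 (adjusted p = 0.0633 and 0.0512). Over all tested genes 15.4% were higher and 13.7% lower in clone 8. No member passed the test for a different response of the clones at 2h, at 4h or in rev against 4h. Of all tested genes 0.0901%, 0.311% and 0.00819% did. Members with an unadjusted p under 0.05 were Ier2 and Zfp36l1 at 2h, Zfp36l1 at 4h, and Ier2 and Btg2 in rev. Those percentages are for adjusted p, and the share of all tested genes at an unadjusted p was not counted. No other tool was run on this difference. The Zfp36l1 rise at 2h was 1.90 ± 0.22 in clone 4 and 2.83 ± 0.19 in clone 8, a difference of 0.93 ± 0.32 (adjusted p = 0.327).

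Btg and Zfp36 proteins act through the CCR4-NOT deadenylase. A list of 27 genes held its subunits, other enzymes and cofactors of deadenylation, decapping and mRNA decay, and the rest of the BTG/TOB family. Of these 25 were tested, and at 4h 5 were higher and 3 lower than at 0h, with a median log2 fold change of 0.09; these counts are near the 17.2% and 16.8% of all tested genes. The catalytic subunit gene Cnot6 rose by 0.45 ± 0.09 (adjusted p = 3.03e-04) and Tob2 by 0.29 ± 0.10 (adjusted p = 0.0181). The decapping cofactor gene Dcp1b fell by 1.22 ± 0.27 (adjusted p = 6.76e-04), from 3.57 ± 0.881 to 1.51 ± 0.660 CPM. Tob1, an antiproliferative relative of Btg1 and Btg2, was at 30.9 ± 2.85 CPM at 0h, 19.1 ± 4.30 at 4h and 35.1 ± 7.88 in rev (SD, n = 4). Its log2 fold changes were -0.72 ± 0.12 at 4h (adjusted p = 2.24e-05) and 0.87 ± 0.12 in rev against 4h (adjusted p = 3.67e-06).

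Among 12 other proteins that bind AU-rich elements or act on the same mRNAs, 11 were tested, with 6 higher and 2 lower at 4h and a median of 0.21, against 17.2% and 16.8% of all tested genes; the count of lower genes is near that background. Elavl1 (HuR), which stabilises such mRNAs, rose from 92.99 ± 4.64 to 118.6 ± 4.91 CPM (0.35 ± 0.07, adjusted p = 2.36e-04), and Rc3h2 (Roquin-2) by 0.33 ± 0.08 (adjusted p = 0.00166). Tia1, a translational repressor, fell by 0.71 ± 0.15 (adjusted p = 2.57e-04) and Auh by 0.44 ± 0.14 (adjusted p = 0.0157).

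Of 25 other early-response genes, 22 were tested, and 17 were higher and 2 lower at 4h, with a median of 1.28, against 17.2% and 16.8% of all tested genes. In rev against 4h 2 were higher and 14 lower, against 7.93% and 8.43%. The lower count at 4h and the higher count in rev, 2 genes each, are near or below those shares. The ERK feedback inhibitor gene Spry4 rose by 7.88 ± 0.16 (adjusted p = 4.61e-29) and fell by 6.20 ± 0.14 in rev (adjusted p = 1.15e-27). Egr3 was at 0 counts in all 4 libraries at 0h and at 3.80 to 14.3 CPM at 4h. The 2 that were lower at 4h, Gadd45b (-1.09 ± 0.16, adjusted p = 1.83e-06) and Rhob (-0.61 ± 0.15, adjusted p = 0.00217), were higher again in rev, by 1.63 and 0.65. Each comparison used libraries in common with the next, so the values of 4h against 0h and of rev against 4h are given side by side only.

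Likeness between members is given as a description over 16 libraries that share their groups, after removal of each clone's mean. Pearson's r was highest for Ier2 with Zfp36l2 (0.934) and for Zfp36l1 with Zfp36l2 (0.919). Btg2 was negative with every Ier and Zfp36 gene, from -0.397 with Ier5l to -0.786 with Ier2, and Btg1 lay between -0.296 (Zfp36l1) and 0.294 (Btg2) with every other member. The genes outside the families whose profile was most like that of Zfp36l2 were Trib1 (r = 0.992) and Smad7 (r = 0.987). For Zfp36l1 they were Arf6 (0.976) and Zswim4 (0.968), and for Ier2 Enc1 (0.959) and Epha2 (0.953). For the other members the nearest genes were less alike, with r from 0.869 to 0.904 for those named: Phf6 for Ier3, Tex11 and Mob4 for Ier5, Ddx18 and Ddx58 for Ier5l, Hsf2bp and Tmem70 for Btg1, Uhrf1bp1 and Map4k2 for Btg2, and Resf1 and Ccnl1 for Zfp36.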

How the data were processed

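The deposited values were raw counts per gene identifier, per the labels and the values themselves, from total RNA depleted of ribosomal RNA (NEBNext kits, per the labels' protocols). The submitters' processing notes name bcl2fastq 2.19.1, STAR 2.5.3a and the build mm10; the counting tool, annotation and strand setting were not given in the sources used here. Symbols, positions and lengths came from GENCODE M21. Counts of 16 libraries, 4 per group, went through edgeR 4.0.16 (with limma 3.58.1, R 4.3.3): filterByExpr over the groups, TMM scaling, a quasi-likelihood fit on group plus clone, two-sided contrasts and Benjamini-Hochberg adjustment over all tested genes at 0.05. SE was the log2 fold change over the square root of F. Levels per kilobase used merged exon length. Likeness was Pearson's r of log2 CPM (prior count 2) over genes averaging 5 CPM or more, and the 2 nearest genes per member were named, of which 1 is not reported here. From each gene list, up to 2 genes per direction with the largest change at 4h were named. The pipeline was tested on simulated data. The floor was 3 counts and covers counting error only. The members and lists were chosen with earlier results of these data known. Alternatives included RLE, library size, other filters and covariates, DESeq2 1.42.0, a replicate block and leaving out each library; leaving out 2h clone 4 replicate 2 and rev clone 8 replicate 2 together was added after seeing the data.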

Additional observations from a re-analysis of the deposited data

Results flagged for a closer look

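Of the 36 sets of 4 libraries (9 genes in 4 groups), 4 held a library far from the other 3 by Dixon's criterion, which chance meets in about 1 of 20 sets. Zfp36 at 4h was 3.41 CPM in clone 4 replicate 1 against 6.31 to 6.84 CPM in the other 3 libraries, from 31 counts. Zfp36l2 at 2h was 98.4 CPM in clone 8 replicate 2 against 75.5 to 78.4 CPM. Ier2 at 4h was 91.0 CPM in clone 8 replicate 2 against 85.1 to 85.6 CPM. Btg1 in rev was 10.3 CPM in clone 4 replicate 1 against 6.79 to 7.38 CPM.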

How the results depend on the processing

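Counts of members are set beside the same counts over all tested genes, 12215 unless given or a library was left out. Also requiring a log2 fold change of 1 or more in either direction left 3 of 4 members higher at 2h against 0h, without Ier2 (0.89), where all genes called higher went from 1390 to 179. It left 3 of 7 higher and 0 of 2 lower at 4h against 0h (all genes: 2098 to 305 and 2048 to 424), and 0 higher and 0 lower at 4h against 2h (464 to 74 and 430 to 45). In rev it left 3 of 6 lower against 4h (1030 to 140) and 0 lower against 0h (1204 to 143). With library size alone, 0 members were lower at 4h against 0h, where all genes were called 554 higher and 327 lower, and 0 were higher and 0 lower at 4h against 2h, where all genes were called 88 higher and 12 lower. Between clones 1 of 4 passed, and all genes went from 1886 higher and 1669 lower to 288 and 1837. Its log2 fold changes of opposite sign within the time course were 0.026 (Ier2), 0.12 (Btg1) and 0.0034 (Btg2) at 4h against 2h, -0.12 for Btg2 in rev against 4h, and -0.28 (Ier2), -0.12 (Ier3), -0.051 (Ier5l) and -0.22 (Zfp36l2) in rev against 0h. Between clones they were -0.033 (Ier2), -0.097 (Btg2) and -0.059 (Zfp36l2), and the ratio of reversal of Btg2 became -0.444. For the difference between clones in response they were -0.40 (Ier5l), -0.51 (Btg1) and -0.19 (Btg2) at 4h against 0h. In rev against 4h that of Zfp36l1 was -0.042. Without clone in the model, 1 member was lower at 4h against 0h (all genes: 1323 lower), and 1 was higher and 0 lower at 4h against 2h (129 and 90). With no filter, and with DESeq2, 1 was lower at 4h against 0h (2010 of 31361 and 1710 genes), and with DESeq2 2 passed between clones (1640 genes higher, 1461 lower). Btg1 was lower at 2h against 0h, making 1 member lower in place of 0, when the 8 models' share was a covariate, with only the 2 groups, and with the replicate block (adjusted p = 0.0448); all genes called lower were then 1197, 1047 of 11770 and 1137, against 1182. The replicate numbers do not pair the libraries: over 12 pairs of groups the mean correlation of same-numbered deviations was 0.0098, from -0.32 to 0.19, and no other member changed its call under the block. Btg1 at 4h against 2h, -0.01, became 0.017 under the block, 0.025 with only the 2 groups, 0.021 without clone and 0.0029 with DESeq2. Leaving out each library gave 0 to 1 members lower at 2h against 0h (all genes: 743 to 1203), 0 to 2 lower at 4h against 0h (1646 to 1977), 1 to 2 higher and 0 to 1 lower at 4h against 2h (303 to 422 and 260 to 379), and 1 to 2 higher in rev against 0h (1231 to 1591). The same fits gave -0.081 to 0.086 for Btg1 at 4h against 2h. For rev against 0h they gave -0.035 to 0.16 for Ier2 and -0.00033 to 0.50 for Ier3. Without both libraries that stand apart, Ier2 in rev against 0h was -0.0040. The cause of these changes was not tested. Of the values of single members under other settings, 857 kept direction and call, 64 lost the call, 10 gained it and 23 changed sign. Depth limits Ier3, Ier5 and Zfp36 most.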
